A study of Mus musculus with 23 samples.

Results

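TGF-β ligands, their receptors and the latency proteins that hold them were examined in whole tumors of 5 syngeneic mouse models and in cancer-associated fibroblasts (CAFs) of 4 of them. The members were chosen by gene symbol and comprised 10 of the 24940 symbols in the deposited tables, namely the 3 ligands Tgfb1, Tgfb2 and Tgfb3, the 3 receptors Tgfbr1, Tgfbr2 and Tgfbr3, and the 4 latency proteins Ltbp1, Ltbp2, Ltbp3 and Ltbp4. All 10 passed the filters on low values in both tables.

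TGF-β is a cytokine that drives fibroblasts to deposit matrix and that restrains T cells in tumors. Each ligand is made as a precursor whose propeptide, the latency-associated peptide, stays wrapped around the mature dimer. A latent TGF-β binding protein (LTBP) couples this complex to the extracellular matrix, from which integrins or proteases release the active ligand. The free ligand binds TGFBR2, often presented by the co-receptor betaglycan (TGFBR3), and TGFBR2 then phosphorylates TGFBR1, which passes the signal to SMAD2 and SMAD3.

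Tumors were grown under the flank skin of adult female C57BL/6 mice from B16-F10 melanoma (B16), EO771.LMB mammary (EO771), LL/2 lung (LL2), MC38 colon or Pan02 pancreas cancer cells, with 3 tumors of each. None carried an engineered allele or received a treatment, and ulcerated tumors had been left out. CAFs were FAP+ CD45- cells sorted from EO771, LL2, MC38 and Pan02 tumors in 2 rounds, with no B16 CAFs. The 2 libraries of a model are called a and b, and the labels do not say which round each came from. Each model stands for 1 cell line, so that a difference between models is a difference between 5 lines and the tissue that formed around them. The tumors of a model are numbered in the labels without naming mice, and p-values therefore measure the spread between these samples, which may in part be technical. Each gene had a single estimate of this spread, shared by all models of its table. Models said not to differ beyond their spread were judged by it and may still lie apart without overlap.

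Counts over genes summed to 10035173 to 21946486 per tumor, with a median of 16541399. The relative depth of the CAF libraries ran from 40.5% of the deepest in MC38 b to 90.6% in EO771 a, with both LL2 libraries at 99.0% or more. Tumor levels are given as read counts scaled to the effective library size (CPM) and CAF levels as the same per kilobase of transcript (RPKM). The tables were normalized separately, so no test was made between tumors and CAFs. B16 tumors held melanocyte transcripts at a summed 22200 to 27640 CPM over 6 markers, against at most 31.6 CPM in the other models. The summed level of 9 fibroblast markers was 393 to 1651 CPM in B16, 2853 to 13300 CPM in EO771, LL2 and MC38, and 43210 to 49030 CPM in Pan02. In bulk tissue, fewer cells of a type and less RNA per cell cannot be told apart. Skeletal muscle transcripts ranged from 4.08 to 1020 CPM over the LL2 tumors, from 361 to 2898 CPM in MC38 and from 36.0 to 823 CPM in Pan02, and were at most 13.2 CPM in B16 and EO771.

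The sorted CAF libraries carried all 9 fibroblast markers at 1 RPKM or more in at least 1 library of each model, with Fap at 1.89 to 11.4 RPKM. Ptprc, which encodes CD45, was at most 0.947 RPKM. The sum of 6 leukocyte markers, Ptprc included, was 36.7 to 40.4 RPKM in EO771 CAFs and 18.6 to 30.1 RPKM in Pan02 CAFs, where Cd53 alone was at 16.1 to 28.1 RPKM, and 2.45 to 3.44 RPKM in LL2 and MC38 CAFs. They also held epithelial transcripts. The sum of 6 epithelial markers was 494 to 501 RPKM in EO771, 205 to 211 RPKM in LL2 and 836 to 1122 RPKM in Pan02, but only 1.78 to 4.23 RPKM in MC38. Most of it was keratin mRNA, with Krt8 at 492 to 495 RPKM in EO771 CAFs and 385 to 545 RPKM in Pan02 CAFs. Pan02 CAFs also held Krt18 at 349 to 483 RPKM and Krt19 at 81.4 to 82.4 RPKM. Their Cdh1 was at 10.5 to 14.1 RPKM, against at most 0.621 RPKM in the other CAFs. Cldn4 was at most 4.35 RPKM in any CAF library. The defining marker Epcam stayed at or below 2.46 RPKM, but it was also at most 3.88 CPM in whole tumors. The 6 macrophage markers summed to 111 to 140 RPKM in EO771 CAFs and to at most 18.3 RPKM in the others. The 6 endothelial markers summed to 69.5 to 70.0 RPKM in EO771 CAFs and 42.1 to 53.4 RPKM in LL2. In MC38 the endothelial sum was 26.6 to 36.5 RPKM and in Pan02 5.73 to 11.1 RPKM. The MC38 libraries stood apart from each other, with fibroblast markers at 6551 RPKM in one and 1530 RPKM in the other. The part of these other transcripts in the CAF results was not tested.

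The propeptides of the ligands differ in how integrins can reach them, and the codons concerned are shown because the integrin genes are described with the pathway genes. The αv integrins bind an Arg-Gly-Asp motif in the propeptide. In the GENCODE vM21 transcripts, the longest open reading frame of Tgfb1 held 390 codons and 1 such motif, starting at codon 244 counted from the first ATG. The frame of Tgfb3 held 412 codons and 1 motif starting at codon 261. The frame of Tgfb2 held 442 codons and 0 motifs. The coding strand around the motif reads as follows, with its 3 codons in capitals.

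Tgfb1: cccaaacgtCGGGGCGACctgggcacc

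Tgfb3: gaccatggcCGTGGAGACctggggcgt

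Ltbp1, the member whose model means spanned the largest fold over tumors, has a long and a short transcript that start at different promoters. The 250 bases before each start are shown from RefSeq on GRCm38.p6, plus strand, at chr17:75005279-75005528 for the long transcript and chr17:75178531-75178780 for the short one. Capitals mark a cyclic AMP response element, TGACGTCA.

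Ltbp1 long: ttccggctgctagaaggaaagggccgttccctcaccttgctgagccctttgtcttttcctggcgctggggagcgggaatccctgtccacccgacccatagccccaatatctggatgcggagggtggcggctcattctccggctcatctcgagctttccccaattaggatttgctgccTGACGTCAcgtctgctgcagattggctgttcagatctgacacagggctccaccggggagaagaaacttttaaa

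Ltbp1 short: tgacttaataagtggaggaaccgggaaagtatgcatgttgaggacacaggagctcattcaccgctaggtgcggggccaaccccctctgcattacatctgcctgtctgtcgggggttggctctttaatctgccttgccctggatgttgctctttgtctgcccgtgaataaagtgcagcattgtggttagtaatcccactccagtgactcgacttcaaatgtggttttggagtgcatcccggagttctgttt

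Promoter entries were matched for 8 of the 10 members, with more than 1 start for some. Both strands of the 250 bases were searched for TGACGTCA, for the AP-1 motif TGANTCA, for TATAAA and for the SMAD palindrome GTCTAGAC. These letters occur in 1.55%, 6.75%, 12.4% and 0.167% of 32851 promoter entries of that length. TGACGTCA was found before the long Ltbp1 start only and TATAAA before Tgfb2 only, and the other motifs were found before none of the 8. A match of letters is no proof of a site, and its absence says nothing about the factor.

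**Figure D1:**
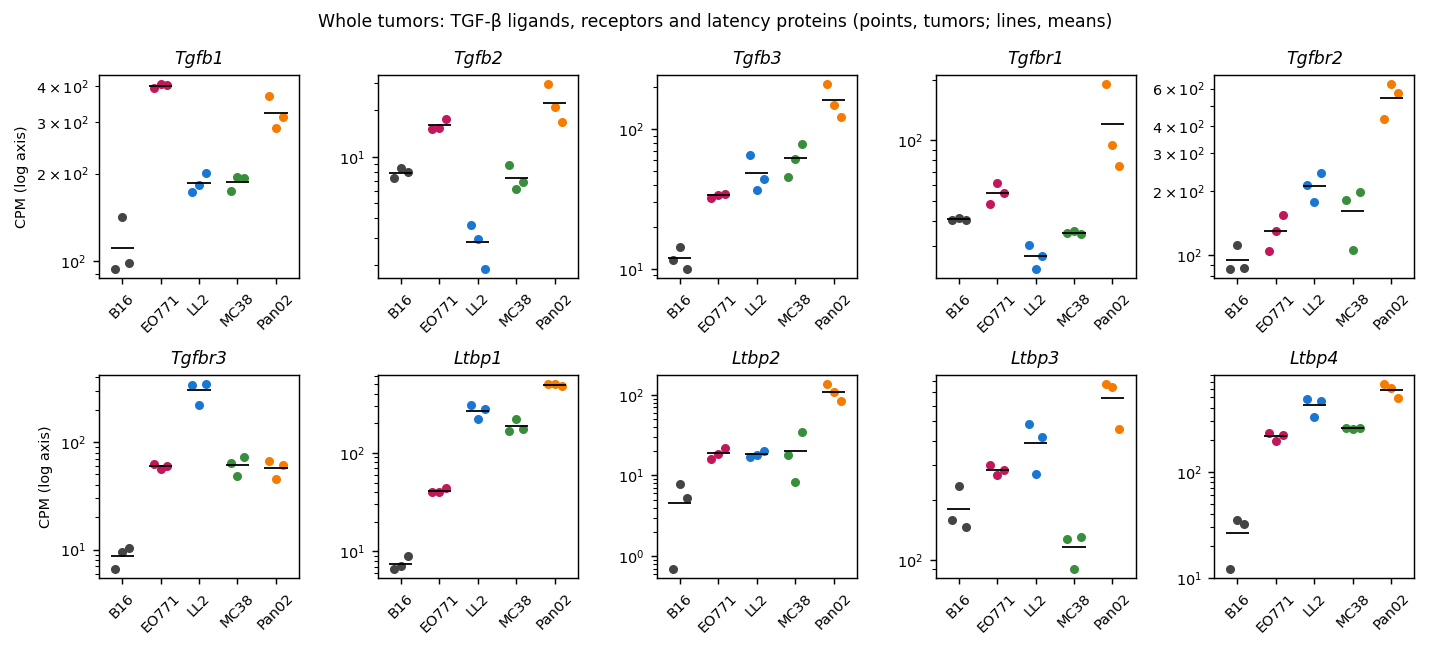
CPM of each member (log axis) in the 15 whole tumors by model, with a point per tumor and a line at the mean of 3 tumors. Pan02 tumors lie above every other tumor for Tgfb3, Tgfbr1, Tgfbr2, Ltbp1, Ltbp2 and Ltbp4, and B16 tumors lie below every other tumor for Tgfb1, Tgfb3, Tgfbr3, Ltbp1, Ltbp2 and Ltbp4.

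In whole tumors, Pan02 had the highest mean of 8 members, with EO771 ahead for Tgfb1 and LL2 for Tgfbr3. B16 had the lowest mean of 7 members. Against the mean of the other 4 models, 9 of 10 members were higher in Pan02 and 0 lower, where 32.5% of the 15722 genes tested were higher and 28.1% lower. The median log2 fold change of the members was 1.78 in Pan02, against 0.05 over all genes. In B16, 8 of 10 members were lower and 0 higher, where 31.6% of all genes were lower and 31.9% higher, and the median over the members was -1.81 against -0.03 over all genes. The same 9 and 8 members passed under every alternative fit, and 8 and 7 of them also had a log2 fold change of at least 1. The summed fibroblast markers moved with both results. In Pan02 most of that sum was Col1a1, Col1a2 and Col3a1 (means of 24050, 11290 and 9348 CPM). Col1a1 and Col1a2 are also among the targets described below. In Pan02, Col1a1, Col1a2, Pdgfrb and Thy1 lay above all other tumors, while Fap, Pdgfra, Col3a1, Dcn and Lum overlapped other models. Other marker lists moved as well. Macrophage markers summed to 390 to 691 CPM in B16 against 1056 CPM or more in the other models. Leukocyte markers summed to 249.8 to 427 CPM in B16 against 529 CPM or more. In Pan02, epithelial markers summed to 2114 to 3344 CPM against at most 1270 CPM elsewhere. Pericyte markers summed to 299.9 to 446 CPM in Pan02 against at most 127 CPM elsewhere, but most of this was Notch3. It was at 211 to 362 CPM in Pan02. The other pericyte markers of Pan02 overlapped other models, with the defining Rgs5 at 45.4 to 67.2 CPM against 17.1 to 65.7 CPM in MC38. The part of these cells in the results was not tested.

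EO771, LL2 and MC38 tumors showed members moving both ways. In EO771, 2 members were higher and 3 lower, with 27.2% of all genes higher and 27.0% lower. In LL2, 4 members were higher and 2 lower, with 23.3% and 18.9% of all genes. In MC38, 2 members were higher and 2 lower, with 27.0% and 24.4% of all genes. In EO771 and MC38 these shares are close to those of all genes. Of these calls, 5 were lost without 1 or another tumor, with adjusted p (edgeR) reaching 0.123 for Tgfb3 and 0.0698 for Tgfbr2 in EO771, 0.275 for Tgfb3 and 0.0993 for Tgfbr1 in MC38, and 0.113 for Ltbp3 in LL2. Tgfb3 in EO771 lost its call without any 1 of the 3 EO771 tumors, B16 tumor 1 or 2, or MC38 tumor 2, and Tgfbr1 in MC38 without any 1 of the 3 MC38 tumors or EO771 tumor 2. The other 3 rested on EO771 tumor 1 for Tgfbr2, on MC38 tumor 2 or 3 for Tgfb3, and on LL2 tumor 1 or 3 for Ltbp3.

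All 10 members differed over the 5 models in edgeR's quasi-likelihood test with Benjamini-Hochberg adjustment, as did 91.1% of all genes tested. Of the 100 comparisons of a member between a pair of models, 78 passed, where 54.6% of all such comparisons over genes passed. A call alone therefore says little about a member.

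**Figure D2:**
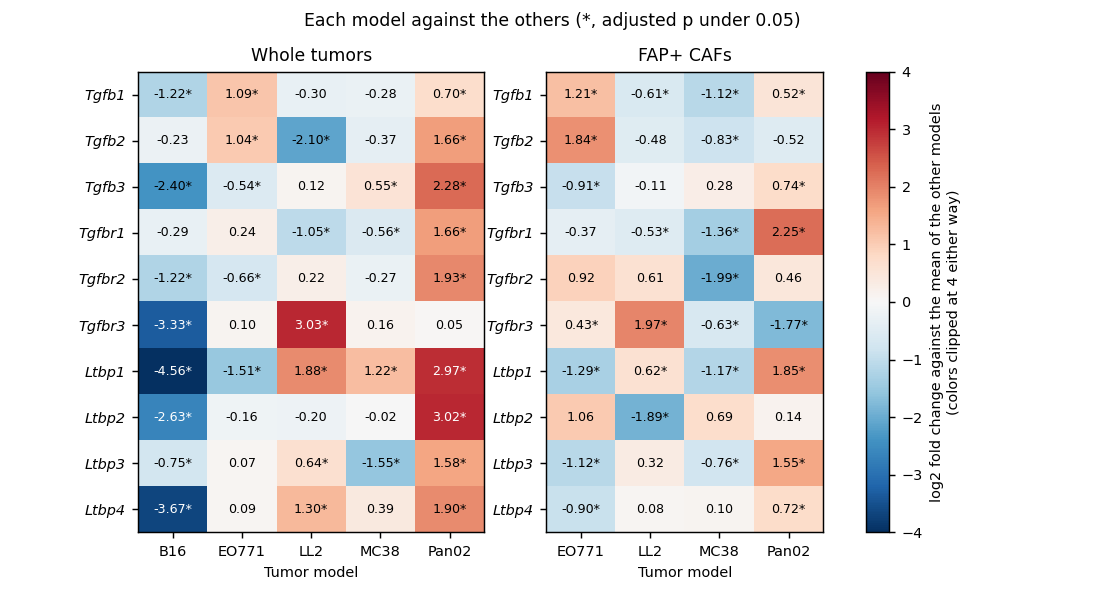
log2 fold change of each member (rows) in each model (columns) against the mean of the other models, in whole tumors and in CAFs, with an asterisk where the adjusted p was under 0.05. The Pan02 column of the tumors holds 9 asterisks, all for higher levels, while the Pan02 column of the CAFs holds 6 higher members and Tgfbr3 lower at -1.77.

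Tgfb1 (chromosome 7, 25687002 to 25705077, plus strand, mm10), the most widely made of the ligands, stood at 94.0, 142 and 98.3 CPM in the B16 tumors, 393, 407 and 404 CPM in EO771, 173, 183 and 200.2 CPM in LL2, 174, 195 and 193 CPM in MC38, and 369.9, 287 and 312 CPM in Pan02. EO771 was above and B16 below all other tumors. The log2 fold change was 1.09 ± 0.11 (SE, n = 3 against 12) in EO771 (adjusted p = 1.82e-06, edgeR) and -1.22 ± 0.13 in B16 (adjusted p = 1.67e-06, edgeR). The EO771 and Pan02 tumors did not overlap, but their difference did not pass (log2 difference 0.31, adjusted p = 0.0742, edgeR). MC38 and LL2 did not differ beyond their spread (0.02, adjusted p = 0.937, edgeR).

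Tgfb2 (chromosome 1, 186622792 to 186705989, minus strand), whose precursor lacks the Arg-Gly-Asp motif above, was the scarcest ligand. It was at 7.27, 8.52 and 7.93 CPM in B16, 15.1, 15.4 and 17.6 CPM in EO771, 3.60, 2.92 and 1.88 CPM in LL2, 8.81, 6.16 and 6.92 CPM in MC38, and 29.8, 21.0 and 16.8 CPM in Pan02. LL2 lay below all other tumors, and Pan02 and EO771 overlapped above the rest. Against the rest, the log2 fold change was 1.66 ± 0.17 in Pan02 (adjusted p = 3.01e-06, edgeR) and -2.10 ± 0.23 in LL2 (adjusted p = 8.86e-06, edgeR). B16, which was lowest for most members, did not differ from MC38 beyond its spread here (log2 difference 0.12, adjusted p = 0.696), and its difference from the other 4 models did not pass (-0.23 ± 0.20, adjusted p = 0.333, edgeR).

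Tgfb3 (chromosome 12, 86056743 to 86079041, minus strand), the ligand linked to mesenchymal tissue, was at 11.7, 14.4 and 10.0 CPM in B16, 32.4, 34.0 and 34.7 CPM in EO771, 65.4, 36.5 and 44.0 CPM in LL2, 45.8, 60.9 and 78.5 CPM in MC38, and 211, 148.5 and 123 CPM in Pan02. The Pan02 tumors were above and the B16 tumors below all others. On the log2 scale, the fold change was 2.28 ± 0.17 in Pan02 (adjusted p = 1.59e-07, edgeR) and -2.40 ± 0.24 in B16 (adjusted p = 1.16e-06, edgeR). In the order between them, MC38 and LL2 did not differ beyond their spread (adjusted p = 0.279, edgeR). LL2 and EO771 did not overlap, but their difference did not pass (adjusted p = 0.102, edgeR). Genes on the other strand share 12.4% of the exon bases of Tgfb3, and the counting did not use strand, so reads over those bases cannot be told apart.

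Tgfbr1 (chromosome 4, 47353222 to 47414924, plus strand), the signaling kinase, was at 40.4, 41.4 and 40.5 CPM in B16, 48.7, 61.3 and 54.7 CPM in EO771, 30.4, 23.2 and 26.8 CPM in LL2, 34.75, 35.7 and 34.6 CPM in MC38, and 191, 95.5 and 74.85 CPM in Pan02. The 3 Pan02 tumors differed 2.55-fold between the highest and the lowest and still lay above all others, while LL2 lay below. This gave log2 fold changes of 1.66 ± 0.18 in Pan02 (adjusted p = 3.88e-06, edgeR) and -1.05 ± 0.22 in LL2 (adjusted p = 0.00156, edgeR). No neighbors in the order EO771, B16, MC38 and LL2 passed (adjusted p = 0.162 to 0.473, edgeR), although none of them overlapped. The spread used was that of all models, with the wide Pan02 range in it. EO771 did not pass against the rest (0.24, adjusted p = 0.312, edgeR), but did without Pan02 tumor 1 (0.39, adjusted p = 0.00397).

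Tgfbr2 (chromosome 9, 116087695 to 116175363, minus strand), the receptor that binds the ligand first, was at 86.3, 112 and 87.4 CPM in B16, 105, 129 and 154 CPM in EO771, 213, 177 and 243 CPM in LL2, 181, 105.5 and 197 CPM in MC38, and 431, 632 and 569.8 CPM in Pan02. Only Pan02 was clear of every other model, and the neighbors from LL2 through MC38 and EO771 to B16 overlapped. Relative to the other models, the log2 fold change was 1.93 ± 0.16 in Pan02 (adjusted p = 3.83e-07, edgeR) and -1.22 ± 0.20 in B16 (adjusted p = 0.000117, edgeR).

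Tgfbr3 (chromosome 5, 107106567 to 107289629, minus strand), which encodes betaglycan, was at 6.58, 9.45 and 10.4 CPM in B16, 63.0, 56.0 and 59.5 CPM in EO771, 340.3, 222 and 347 CPM in LL2, 63.4, 48.4 and 73.1 CPM in MC38, and 66.7, 45.5 and 61.8 CPM in Pan02. The LL2 tumors lay above all others and the B16 tumors below. The log2 fold change was 3.03 ± 0.14 in LL2 (adjusted p = 5.63e-09, edgeR) and -3.33 ± 0.22 in B16 (adjusted p = 1.63e-08, edgeR). EO771, MC38 and Pan02 overlapped, and Pan02, higher than the mean of the other models for the other 9 members, did not pass here (0.05 ± 0.17, adjusted p = 0.813, edgeR).

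Ltbp1 (chromosome 17, 75005529 to 75392512, plus strand), which couples the latent complex to fibrillin and fibronectin, was at 6.58, 7.09 and 8.88 CPM in B16, 39.7, 39.8 and 43.6 CPM in EO771, 303, 221 and 281 CPM in LL2, 167, 218.5 and 175 CPM in MC38, and 496, 500.2 and 478 CPM in Pan02. The models did not overlap, and every pair of neighbors in the order Pan02, LL2, MC38, EO771 and B16 differed (adjusted p = 2.18e-08 to 0.00767, edgeR). Against the rest, the log2 fold change was 2.97 ± 0.10 in Pan02 (adjusted p = 1.07e-10, edgeR) and -4.56 ± 0.15 in B16 (adjusted p = 2.96e-11, edgeR).

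The ratio of reads counted over the exons of the long Ltbp1 transcript to those of the short one, whose promoters are shown above, was 1.14 to 1.2 in the B16 tumors. In the other tumors it was 0.981 to 1.05 and in CAFs 1.015 to 1.04. Both transcripts share most exons and their reads were counted on both, so the ratio stays near 1 by construction. The Ltbp1 count was 66.5 to 178 in B16 tumors, which limits the precision there.

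Ltbp2 (chromosome 12, 84783212 to 84876495, minus strand), an LTBP that does not bind latent TGF-β covalently, was at 0.688, 7.77 and 5.24 CPM in B16, 15.99, 18.3 and 22.0 CPM in EO771, 16.8, 17.7 and 20.4 CPM in LL2, 18.1, 8.24 and 34.7 CPM in MC38, and 136, 109.5 and 82.8 CPM in Pan02. Pan02 lay above and B16 below all other tumors, and the B16 tumor with the lowest value held 7 reads. On the log2 scale, the fold change was 3.02 ± 0.35 in Pan02 (adjusted p = 7.69e-06, edgeR) and -2.63 ± 0.51 in B16 (adjusted p = 0.000497, edgeR). MC38, EO771 and LL2 did not differ beyond their spread (adjusted p = 0.877 and 0.969). A gene on the other strand shares 9.3% of its exon bases.

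Ltbp3 (chromosome 19, 5740904 to 5758532, plus strand), which is needed for normal bone growth, was at 158, 235 and 147.5 CPM in B16, 302, 268 and 285 CPM in EO771, 484, 271 and 416 CPM in LL2, 127, 90.01 and 130.4 CPM in MC38, and 771, 742 and 458 CPM in Pan02. Here MC38, and not B16, lay below all other tumors. This gave log2 fold changes of 1.58 ± 0.18 in Pan02 (adjusted p = 5.69e-06, edgeR) and -1.55 ± 0.22 in MC38 (adjusted p = 6.35e-05, edgeR). The lowest Pan02 tumor lay within the LL2 range, and LL2 and EO771 did not differ beyond their spread (adjusted p = 0.155, edgeR).

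Ltbp4 (chromosome 7, 27305141 to 27333648, minus strand), which is also needed to assemble elastic fibers, was at 12.2, 35.2 and 32.4 CPM in B16, 231, 195 and 224 CPM in EO771, 483, 326 and 461 CPM in LL2, 257, 249.6 and 258 CPM in MC38, and 664.5, 606 and 495 CPM in Pan02. Ltbp1 and Ltbp4 shared the order Pan02, LL2, MC38, EO771 and B16. The log2 fold change of Ltbp4 was 1.90 ± 0.20 in Pan02 (adjusted p = 2.6e-06, edgeR) and -3.67 ± 0.29 in B16 (adjusted p = 1.1e-07, edgeR). The differences of Pan02 from LL2 (adjusted p = 0.172, edgeR) and of MC38 from EO771 (adjusted p = 0.507, edgeR) did not pass, although neither pair overlapped.

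**Figure D3:**
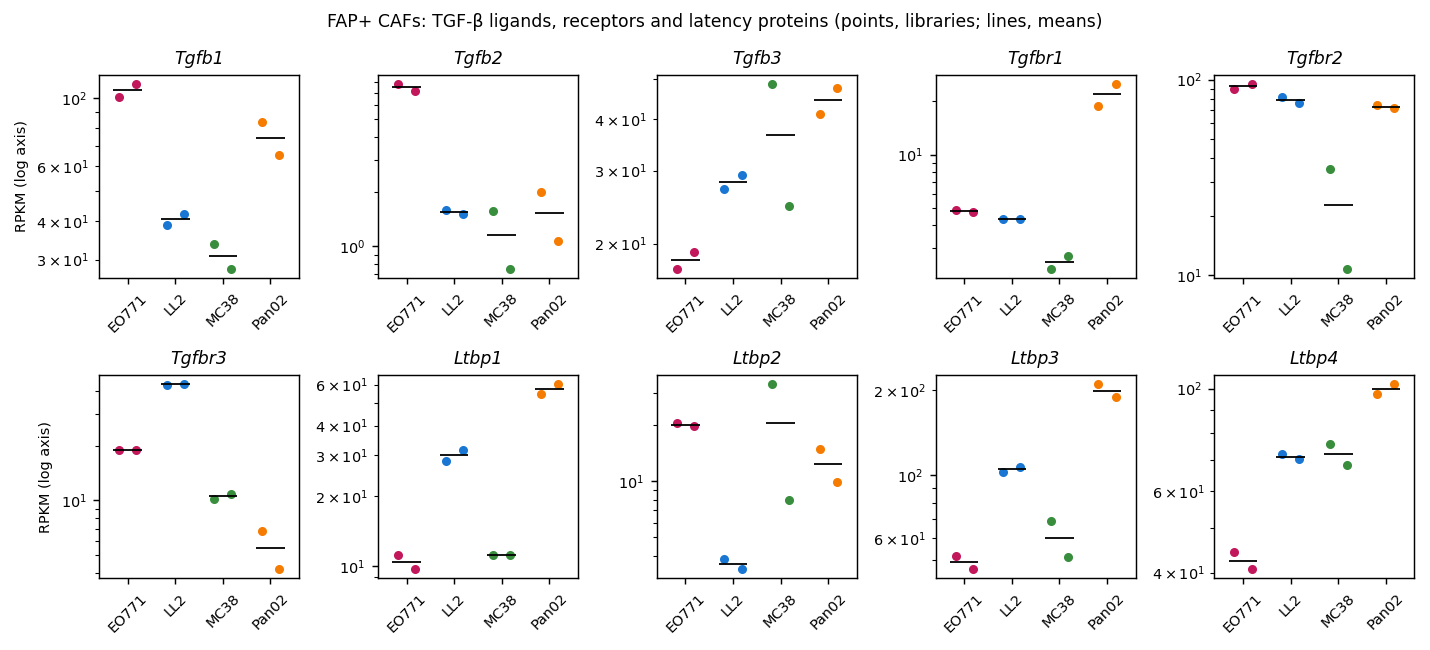
RPKM of each member (log axis) in the 8 CAF libraries by model, with a point per library and a line at the mean of 2. Both EO771 libraries lie above all others for Tgfb1 and Tgfb2, both Pan02 libraries for Tgfbr1, Ltbp1, Ltbp3 and Ltbp4, and both LL2 libraries for Tgfbr3, while the MC38 points lie far apart for Tgfbr2 and Ltbp2.

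In sorted CAFs, Tgfb3 and Ltbp1 kept the order of means that the 4 models had among tumors, and the other 8 members did not. These orders include neighbors that did not differ beyond their spread, among them every pair for Tgfb3 in CAFs. For Tgfb1, Tgfbr1 and Ltbp4 only LL2 and MC38 changed places. In CAFs their difference did not pass for Tgfb1 and Ltbp4 (adjusted p = 0.0874 and 0.924, limma), but did for Tgfbr1 (adjusted p = 0.0161, limma). All 10 members differed over the 4 models (limma on log2(RPKM + 1) with Benjamini-Hochberg adjustment), as did 80.4% of the 13598 genes tested, and 41 of 60 comparisons of a member between a pair of models passed, against 48.1% over all genes. Pan02 CAFs had 6 members higher and 1 lower than the mean of the other 3 models, with 27.1% of all genes higher and 26.5% lower. In MC38 CAFs, 0 members were higher and 7 lower, with 28.6% and 31.3% of all genes. EO771 CAFs had 3 higher and 4 lower, with 24.5% and 27.9% of all genes, and LL2 CAFs had 2 higher and 3 lower, with 14.7% and 18.3%. The median log2 fold change of the members was 0.62 in Pan02 CAFs and -0.79 in MC38 CAFs, where that of all genes was 0.000288 and -0.03.

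With 2 libraries a model, several of these calls rested on a single library. Leaving out 1 library of the model itself took the adjusted p (limma) to as much as 0.10 for Tgfb3 and 0.2 for Tgfbr3 in EO771, 0.117 for Tgfb1, 0.138 for Tgfbr1, 0.0628 for Ltbp1 and 0.126 for Ltbp2 in LL2, and 0.128 for Tgfb1 and 0.159 for Tgfb3 in Pan02. All 7 members that were lower in MC38 CAFs stayed lower without either MC38 library.

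EO771 CAFs stood out for the ligands Tgfb1 and Tgfb2. Tgfb1 was at 100.5 and 111 RPKM in EO771, 38.9 and 42.2 RPKM in LL2, 33.8 and 28.0 RPKM in MC38, and 83.3 and 65.3 RPKM in Pan02, so that EO771 lay above all others as it did among tumors. Relative to the other models, the log2 fold change was 1.21 ± 0.13 in EO771 (adjusted p = 0.000399, limma) and -1.12 ± 0.13 in MC38 (adjusted p = 0.000349, limma). Among neighbors, only the difference of LL2 and MC38 did not pass (adjusted p = 0.0874, limma), although they did not overlap.

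Tgfb2 was at 7.86 and 7.14 RPKM in EO771 CAFs, and 1.57 and 1.5 RPKM in LL2, 1.56 and 0.750 RPKM in MC38, and 1.98 and 1.07 RPKM in Pan02. The EO771 libraries were clear of the other 6, which overlapped. The log2 fold change in EO771 was 1.84 ± 0.19 (adjusted p = 0.000312, limma). In whole tumors EO771 and Pan02 had overlapped at the top, whereas in CAFs EO771 exceeded Pan02 by 1.77 on the log2 scale (adjusted p = 0.000725, limma).

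Tgfb3 ran the other way, with EO771 lowest. It was at 17.4 and 19.1 RPKM in EO771, 27.0 and 29.3 RPKM in LL2, 48.6 and 24.6 RPKM in MC38, and 41.2 and 47.5 RPKM in Pan02. No pair of neighbors in this order passed (adjusted p = 0.13 to 0.422, limma), although LL2 and EO771 did not overlap. The log2 fold change was -0.91 ± 0.23 in EO771 (adjusted p = 0.0129, limma) and 0.74 ± 0.23 in Pan02 (adjusted p = 0.0278, limma), and both were lost without 1 library of the model. The Pan02 call also fell to adjusted p = 0.0603 with no filter on low values, and to 0.0507 to 0.0642 without any 1 of the EO771 or LL2 libraries. In MC38 CAFs, Tgfb3 did not pass (0.28 ± 0.23, adjusted p = 0.319, limma), but did without library b (0.76, adjusted p = 0.00216).

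**Figure D4:**
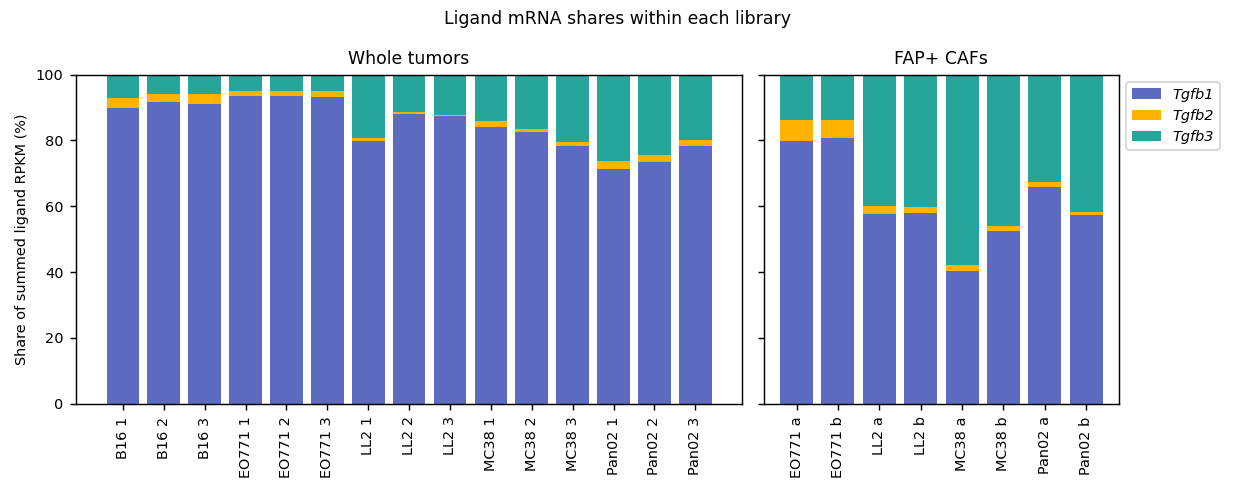
Share of each ligand in the summed RPKM of the 3 ligands (vertical axis, percent) in every whole tumor and CAF library. Tgfb1 takes 71.4% to 93.5% of the sum in tumors and 40.3% to 80.9% in CAFs, and Tgfb3 takes 32.5% to 57.9% in LL2, MC38 and Pan02 CAFs.

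The balance of the ligands within a library does not depend on how the tables were scaled, and is given as a description. Per length, Tgfb1 made up 93.2% to 93.5% of ligand RPKM in EO771 tumors, 89.9% to 91.7% in B16 and 71.4% to 78.4% in Pan02. In CAFs it made up 79.9% to 80.9% in EO771 but 57.6% to 57.8% in LL2 and 40.3% to 52.5% in MC38. Tgfb3 made up most of the difference, with Tgfb2 adding to it in EO771 CAFs. Its share was 46.1% to 57.9% in MC38 CAFs against 14.2% to 20.5% in MC38 tumors, and 13.8% to 13.9% in EO771 CAFs against 4.95% to 5.13% in EO771 tumors. Tgfb2 made up 5.20% to 6.25% of ligand RPKM in EO771 CAFs and at most 3.06% in any other library. The share of Tgfb3 was thus higher in the CAFs than in the tumors of each of the 4 models, with no overlap between the libraries.

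Of the receptors, Tgfbr1 was at 18.75 and 25.0 RPKM in Pan02 CAFs, and 4.87 and 4.78 RPKM in EO771, 4.37 and 4.35 RPKM in LL2, and 2.28 and 2.695 RPKM in MC38. Pan02 was above all others as in tumors, with a log2 fold change of 2.25 ± 0.13 (adjusted p = 1.54e-05, limma), while MC38 was lowest at -1.36 ± 0.13 (adjusted p = 0.000154, limma). LL2, lowest among tumors, was above MC38 here (log2 difference 0.62, adjusted p = 0.0161, limma).

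Tgfbr2 was at 89.9 and 95.3 RPKM in EO771 CAFs, 81.9 and 76.0 RPKM in LL2, 35.0 and 10.8 RPKM in MC38, and 74.3 and 71.3 RPKM in Pan02. MC38 was below all others, with a log2 fold change of -1.99 ± 0.35 (adjusted p = 0.00222, limma), and its libraries differed 3.25-fold. Neither EO771 against LL2 (adjusted p = 0.707, limma) nor LL2 against Pan02 (adjusted p = 0.864, limma) passed, although neither pair overlapped. EO771 did not pass against the other 3 models (0.92 ± 0.35, adjusted p = 0.0621, limma), but did without MC38 library a (1.19, adjusted p = 5.83e-05) or b (0.65, adjusted p = 0.000785). The Pan02 tumors had held far more Tgfbr2 than the other tumors, while the difference of the Pan02 CAFs from the other CAFs did not pass (0.46 ± 0.35, adjusted p = 0.302, limma). Without MC38 library a, the Pan02 CAFs passed as well (0.73, adjusted p = 0.000355), and the LL2 CAFs, which had not (0.61 ± 0.35, adjusted p = 0.221), passed without MC38 library a (0.88, adjusted p = 0.000317) or b (0.35, adjusted p = 0.0168).

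Within a library, Tgfbr2 exceeded Tgfbr1 per length by 17.46 to 19.95 times in EO771 and LL2 CAFs and by 2.85 to 3.96 times in Pan02 CAFs. In EO771 tumors this ratio was 2.535 to 3.39, and in LL2 tumors 8.41 to 10.9. The EO771 tumors and the CAFs sorted from such tumors did not overlap in this ratio, and neither did those of LL2. Pan02 tumors, at 2.71 to 9.14, overlapped the Pan02 CAFs. MC38 tumors, at 3.55 to 6.82, overlapped the MC38 CAFs, which were at 15.4 and 4.0.

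Tgfbr3 was at 43.3 and 43.6 RPKM in LL2 CAFs, 19.0 and 19.03 RPKM in EO771, 10.2 and 10.85 RPKM in MC38, and 6.81 and 4.19 RPKM in Pan02. The models did not overlap, and each pair of neighbors differed (adjusted p = 0.00334 to 0.00887, limma). LL2 was highest as in tumors, with a log2 fold change of 1.97 ± 0.15 (adjusted p = 0.000156, limma), and Pan02 was lowest at -1.77 ± 0.15 (adjusted p = 9.22e-05, limma).

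Of the latency proteins, Ltbp1 was at 54.45 and 60.3 RPKM in Pan02 CAFs, 28.2 and 31.4 RPKM in LL2, 11.14 and 11.12 RPKM in MC38, and 11.1 and 9.68 RPKM in EO771. Against the rest, the log2 fold change was 1.85 ± 0.10 in Pan02 (adjusted p = 1.23e-05, limma) and -1.29 ± 0.10 in EO771 (adjusted p = 0.000105, limma). The order was that of the tumors. MC38 tumors had exceeded EO771 tumors by 2.19 on the log2 scale (adjusted p = 1.41e-07, edgeR). The difference of their CAFs did not pass (0.09, adjusted p = 0.56, limma).

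Ltbp2 was at 20.7 and 19.8 RPKM in EO771 CAFs, 3.82 and 3.38 RPKM in LL2, 33.4 and 7.92 RPKM in MC38, and 14.9 and 9.90 RPKM in Pan02. The MC38 libraries lay on either side of EO771 and Pan02, so that the MC38 mean was highest on the linear scale and below EO771 on the log scale. MC38 against the rest gave 0.69 ± 0.44 (adjusted p = 0.209, limma), which became 1.66 (adjusted p = 0.000492) without library b and -0.28 (adjusted p = 0.24) without library a. LL2 was lowest at -1.89 ± 0.44 (adjusted p = 0.0155, limma), and the adjusted p was 0.103 and 0.126 without 1 or the other LL2 library. The difference of Pan02 CAFs did not pass (0.14 ± 0.44, adjusted p = 0.807, limma), but did without MC38 library a (0.46, adjusted p = 0.0336). That of EO771 CAFs did not pass either (1.06 ± 0.44, adjusted p = 0.0771, limma), but did without MC38 library a (1.38, adjusted p = 0.000302) or b (0.73, adjusted p = 0.00525).

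Ltbp3 was at 211 and 189 RPKM in Pan02 CAFs, 103 and 107.5 RPKM in LL2, 68.8 and 51.6 RPKM in MC38, and 52.0 and 46.55 RPKM in EO771. Pan02 was clear of the rest, with a log2 fold change of 1.55 ± 0.14 (adjusted p = 9.91e-05, limma), and EO771 was lowest at -1.12 ± 0.14 (adjusted p = 0.000599, limma). MC38 and EO771 overlapped, although EO771 tumors had held more Ltbp3 than MC38 tumors without overlap.

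Ltbp4 was at 97.6 and 102 RPKM in Pan02 CAFs, 72.1 and 70.5 RPKM in LL2, 76.0 and 68.4 RPKM in MC38, and 44.2 and 40.7 RPKM in EO771. On the log2 scale, the fold change was 0.72 ± 0.10 in Pan02 (adjusted p = 0.000899, limma) and -0.90 ± 0.10 in EO771 (adjusted p = 0.000407, limma), with LL2 and MC38 overlapping between them. EO771 CAFs thus had the lowest mean for 3 of the 4 LTBPs and the highest for 2 of the 3 ligands. For Ltbp1 and Ltbp3 their difference from MC38 CAFs did not pass (adjusted p = 0.56 and 0.203, limma).

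Among the LTBPs, per length, Ltbp3 and Ltbp4 made up most of the summed RPKM in every CAF library and every tumor. Ltbp3 alone took 77.3% to 90.05% of it in B16 tumors, 50.9% to 52.8% in EO771 tumors and 17.9% to 24.5% in MC38 tumors. In CAFs the share of Ltbp3 spanned only 36.3% to 55.8%. Ltbp1 took 4.79% to 5.45% in EO771 tumors, against 17.6% to 30.2% in LL2, MC38 and Pan02 tumors.

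**Figure D5:**
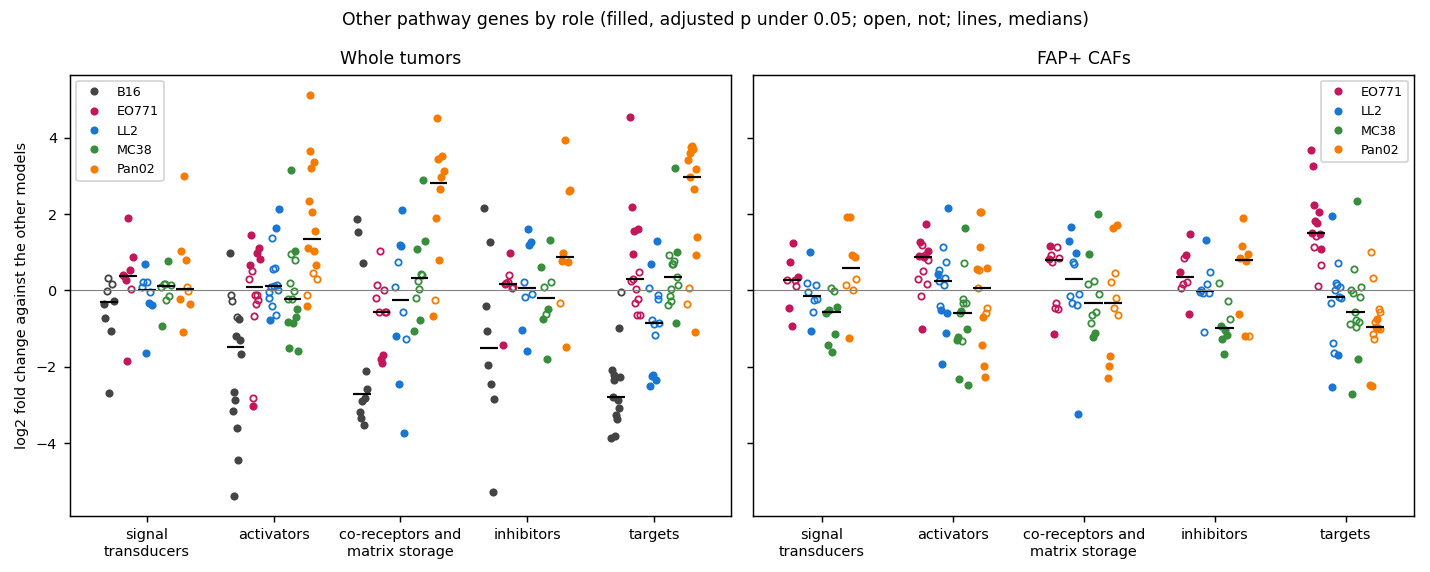
log2 fold change (vertical axis) of the other pathway genes by role against the mean of the other models, in whole tumors and in CAFs, with a point per gene, filled where the adjusted p was under 0.05, and lines at the medians. For the targets, Pan02 lies at a median of 2.96 in tumors and -0.96 in CAFs, and EO771 at 0.31 in tumors and 1.51 in CAFs.

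The other genes of the pathway were taken from a list of 53 in 5 roles. In tumors all 53 were tested and 51 differed over the models, with 91.1% of all genes, the exceptions being Smurf2 and Nrros. Pan02 had 37 of them higher and 7 lower, with 32.5% and 28.1% of all genes, and B16 had 6 higher and 40 lower, with 31.9% and 31.6%. In CAFs 52 were tested and 40 differed, with 80.4% of all genes. There EO771 had 22 higher and 5 lower, with 24.5% and 27.9% of all genes, while Pan02 had 16 higher and 14 lower, close to the 27.1% and 26.5% of all genes. MC38 CAFs had 4 higher and 21 lower, with 28.6% and 31.3% of all genes.

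The targets are genes that TGF-β is known to induce in fibroblasts and epithelium. In Pan02 tumors, 10 of 13 were higher and 1 lower, with 32.5% and 28.1% of all genes. The higher ones included Postn, a matrix protein of activated fibroblasts (1823 ± 109.7 CPM, SD, n = 3, against 27.3 to 540.5 CPM as means of the other models, log2 fold change 3.76 ± 0.30), and the collagen gene Col1a2 (3.705 ± 0.39). In Pan02 CAFs, 0 of 13 were higher and 4 lower, with 27.1% and 26.5% of all genes. The share of lower targets there is close to that of all genes. EO771 CAFs had 9 of 13 higher and 0 lower, with 24.5% and 27.9% of all genes. Tgfbi was at 207 to 209.8 RPKM in EO771 and 105 to 106 RPKM in LL2, but 4.04 to 16.6 RPKM in MC38 and Pan02 CAFs. Ctgf was at 139.8 to 150.5 RPKM in EO771 CAFs, which overlapped the 82.3 to 150.9 RPKM of Pan02. It was at 31.1 to 139.6 RPKM in MC38 and was lowest in LL2 at 14.1 to 20.6 RPKM. In B16 tumors 12 of 13 targets were lower, with 31.6% of all genes.

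Of 8 signal transducers, 7 differed over models in both tables, close to the 91.1% of all genes in tumors and 80.4% in CAFs. Smad7, the inhibitory SMAD that TGF-β itself induces, was highest in EO771 tumors at 135.5 to 183 CPM (1.90 ± 0.17, adjusted p = 1.01e-06, edgeR) and lowest in B16 at 10.2 to 15.1 CPM. In CAFs it was at 35.6 to 40.2 RPKM in EO771, 22.6 to 44.9 RPKM in Pan02 and 6.98 to 8.69 RPKM in MC38. Smad3, a transducer of the receptor signal, was highest in Pan02 CAFs at 40.2 to 41.5 RPKM against 6.31 to 14.8 RPKM in the others (1.935 ± 0.095, adjusted p = 7.15e-06, limma). It was also highest in Pan02 tumors at 78.9 to 169 CPM, though with a range that reached those of EO771 and LL2. Smad6, the other inhibitory SMAD, was highest in Pan02 tumors at 13.9 to 29.8 CPM and in Pan02 CAFs at 8.645 to 9.35 RPKM.

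Of 14 activators, 10 were higher and 1 lower in Pan02 tumors, with 32.5% and 28.1% of all genes. Thbs1, which encodes the ligand activator thrombospondin 1, was at 734 to 2282 CPM there (3.21 ± 0.34, adjusted p = 3.7e-06, edgeR), and at 223 to 256 RPKM in Pan02 CAFs against 17.45 to 161 RPKM in the other CAFs (2.055 ± 0.51, adjusted p = 0.0119, limma). Mmp2, a protease that can release latent ligand, was at 389 to 1281 CPM in Pan02 tumors. Mmp9, another such protease, was at 18.9 to 23.4 RPKM in EO771 CAFs and 19.3 to 20.1 RPKM in MC38 CAFs but only 1.18 to 2.425 RPKM in Pan02 CAFs. Plau, which encodes urokinase, was highest in LL2 CAFs at 130 to 140.5 RPKM. Itgb5, a β subunit that pairs with αv, was at 369.8 to 483 CPM in Pan02 tumors and 10.6 to 28.9 CPM in B16.

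Among the integrins that bind the Arg-Gly-Asp codons shown above, Itgav and Itgb8 were picked out after their values were seen. Itgav, the αv subunit, was highest in B16 tumors at 269 to 381 CPM (0.98 ± 0.135, adjusted p = 2.77e-05, edgeR), in contrast to 8 of the 10 members. Itgb8, its partner in releasing latent TGF-β, was at 3.48 to 25.45 CPM in Pan02 tumors and at most 1.49 CPM elsewhere, and at 3.30 to 5.11 RPKM in Pan02 CAFs against at most 0.405 RPKM in the other CAFs.

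Of 10 genes for co-receptors and matrix storage, 8 were higher and 1 lower in Pan02 tumors, with 32.5% and 28.1% of all genes. In B16 tumors, 3 were higher and 7 lower, with 31.9% and 31.6% of all genes, the higher ones being Eng, Acvrl1 and Emilin1. Fn1, which encodes the fibronectin that LTBP1 attaches to, was at 7272 to 9153 CPM in Pan02 tumors and 137 to 298 CPM in B16. Fbn2, a fibrillin, was at 36.5 to 63.0 CPM in Pan02 tumors and at most 10.7 CPM in the others. Dcn, which encodes the ligand-binding proteoglycan decorin, was at 271 to 694 CPM in Pan02 and 252.5 to 443 CPM in LL2 tumors, and at 3.73 to 34.6 CPM in B16. In Pan02 CAFs 2 of these genes were higher and 3 lower, close to the 27.1% and 26.5% of all genes. Eng, the co-receptor endoglin, was at 4.09 to 7.22 RPKM in Pan02 CAFs against 15.95 to 41.8 RPKM in the others (-2.285 ± 0.25, adjusted p = 0.000304, limma). The summed endothelial markers were likewise lowest in Pan02 CAFs, and their part in this difference was not tested. Fbn1, the fibrillin that binds LTBPs, was highest in LL2 CAFs at 143 to 167 RPKM. Fmod was at 10.4 and 61.0 RPKM in the MC38 libraries and at most 0.992 RPKM in LL2.

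Of 8 inhibitors, 6 were higher and 1 lower in Pan02 tumors, with 32.5% and 28.1% of all genes. Pmepa1, a TGF-β-induced inhibitor of SMAD signaling, was at 428 to 609 CPM in Pan02 against at most 84.0 CPM elsewhere (3.94 ± 0.24, adjusted p = 2.44e-08, edgeR). It was highest in Pan02 CAFs as well at 62.1 to 78.1 RPKM (1.89 ± 0.49, adjusted p = 0.0141, limma). Htra1, a protease that degrades TGF-β family ligands, was at 550.1 to 783 CPM in Pan02 tumors and 4.715 to 10.9 CPM in B16. Its relative Htra3 was highest in Pan02 tumors at 123 to 146 CPM but was at 18.7 to 31.0 RPKM in Pan02 CAFs, below the 96.5 to 102 RPKM of EO771 CAFs. Cd109, a co-receptor that dampens signaling, was at 6.44 to 9.07 RPKM in EO771 and LL2 CAFs and 1.265 to 2.57 RPKM in MC38 and Pan02 CAFs.

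For each ligand, the genes with the most similar pattern over the 15 tumors were sought among 10574 genes with a mean of at least 10 CPM, by Pearson's r of log2(CPM + 1). Closest to Tgfb1 were Ptk2b (0.969), Palld (0.968) and Numbl (0.966). Closest to Tgfb2 were Ttll7 (0.948), Slc44a1 (0.945) and Adamts12 (0.9325), and closest to Tgfb3 were Ssc5d (0.975), Map3k14 (0.972) and Smarcd3 (0.9645). The points of these correlations share their libraries and the 5 model means, and no other member was among the 3 closest of any ligand.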

How the data were processed

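Whole tumors (15) and sorted CAFs (8 libraries) were sequenced as polyA RNA. The deposited tumor table lists expected counts of RefSeq transcripts, not normalized, in 0.5 steps. The deposited CAF table lists RPKM, which the authors scaled by length and library size. Per the submitters' processing notes and the study's methods, reads were aligned to mm10 with STAR 2.5.0c and counted over exons with HOMER without strand, and DESeq2 was among the authors' tools. Where a symbol had several transcripts, the one with the highest mean was kept. The 2 rows that name no gene took no part, and 5 columns of values were not used. Titles of the Pan02 tumors read Pan01, and the cell line label was followed.

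Tumor models were compared with edgeR 4.0.16 (quasi-likelihood fit, TMM) after the counts had been rounded and low genes removed by filterByExpr. CAF models were compared with limma 3.58.1, with a variance trend, on log2(RPKM + 1) of genes reaching 1 RPKM in 2 libraries or more. A fold change on this scale understates that of low genes. Both fits had a term per model and no covariate, and p-values were adjusted (Benjamini-Hochberg) over all genes tested, with a threshold of 0.05. All tests were two-sided. DESeq2 1.42.0, other scalings, filters, pseudocounts and transcripts, a replicate block and leaving out each sample were tried. The code was tested on simulated data. R 4.3.3 was used. Depth per CAF library is known only relative to the deepest, since RPKM keep no totals.

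Genes named were the 10 members, the 3 genes of each pathway role with the widest range of model means in each table, the 3 genes most like each ligand, and cell type markers. Itgav, Itgb8, Smurf2, Nrros, Acvrl1 and Emilin1 were named outside this rule after their values were seen, as were Eng among tumors and the markers that do not define a list. A gene that this rule names among the targets is not reported here. Members and lists were chosen with earlier results of these data known. Sequences were read from RefSeq and GENCODE tables.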

Additional observations from a re-analysis of the deposited data

Results flagged for a closer look

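Over the 6 pairs of models present in both tables, 60 combinations of a member and a pair were compared, and in 5 of them the groups separated without overlap in tumors and, the other way round, in CAFs. Tgfbr2, the ligand-binding receptor, accounted for 3. EO771 was below LL2 in tumors (log2 fold change -0.71, adjusted p = 0.0232, edgeR) and above it in CAFs (0.23, adjusted p = 0.707, limma). EO771 was below Pan02 in tumors (-2.07, adjusted p = 7.47e-06, edgeR) and above it in CAFs (0.34, adjusted p = 0.532, limma). LL2 was below Pan02 in tumors (-1.36, adjusted p = 0.00032, edgeR) and above it in CAFs (0.11, adjusted p = 0.864, limma). For Ltbp2, EO771 was below Pan02 in tumors (-2.55, adjusted p = 0.0012, edgeR) and above it in CAFs (0.69, adjusted p = 0.312, limma). For Tgfbr1, LL2 was below MC38 in tumors (-0.39, adjusted p = 0.239, edgeR) and above it in CAFs (0.62, adjusted p = 0.0161, limma). In none of the 5 did both sides pass, and the difference between tumors and CAFs was not tested, since the tables were normalized separately. The same count was not made over all genes, so 5 of 60 cannot be called many or few. Groups of 2 or 3 samples are too small for a test of single outlying samples.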

How the results depend on the processing

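Requiring a log2 fold change of at least 1 left 14 of the 26 CAF member calls against the other models and 27 of the 41 between pairs. No other alternative moved a count by more than 1.5 times. Leaving out 1 tumor gave 10 to 10 members differing over the models, 29 to 34 calls against the rest, 72 to 81 calls between pairs and 50 to 51 pathway genes. Leaving out 1 CAF library gave 8 to 10, 20 to 34, 34 to 50 and 30 to 52. A model left with 1 library was assumed to vary like the others.

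Of 640 values of the highest and lowest model of each member under alternatives, 625 kept their direction and their side of the threshold, 11 lost and 3 gained the call, and 1 reversed, namely Ltbp2 in MC38 CAFs (-0.28 without library a, 1.66 without library b). Total-count scaling moved the median log2 value of all genes by 0.14 in MC38 and -0.11 in Pan02 tumors against the rest. It took the call from Tgfbr1 in MC38 (-0.42, adjusted p = 0.0985, edgeR). It gave one to Ltbp4 in MC38 (0.53, adjusted p = 0.0411) and to Tgfb1 in LL2 (-0.31, adjusted p = 0.0357). Tgfb1 had not passed in LL2 or MC38 tumors (adjusted p = 0.0532 and 0.0595, edgeR). Both passed with DESeq2 (adjusted p = 0.02 and 0.0467) and with the longest transcript (adjusted p = 0.0418 and 0.0284, edgeR). Same-numbered tumors correlated over 0.1 in 9 of 30 pairs (-0.17 to 0.26). Differently numbered tumors were not compared, so these values cannot say whether the numbers pair the tumors. With the replicate block, 31 calls of members against the rest passed in place of 32 (Tgfb3 in EO771 lost its call, -0.54, adjusted p = 0.0536) and 77 between pairs in place of 78, and 10 members and 51 pathway genes differed over the models. No paired analysis was possible for CAFs because their columns carry no replicate number. The cause of these changes was not tested. CAF depth limits values near 1 RPKM, such as Tgfb2 outside EO771.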
